A study of Mus musculus with 3 samples.

Results

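The transcripts of 4 metabolic enzymes, Ckb, Ephx1, Nnmt and Dhrs3, were examined in mouse thymocyte RNA. They were found by symbol among the 6795 genes that had at least 1 probe with a single gene symbol in the platform annotation, and all 4 were measured, each by 1 probe. They had been picked because their ratios on these same arrays were among the highest (Ckb, Ephx1 and Nnmt) or the lowest (Dhrs3), so their ratios are given as a description and were not tested.

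The study hybridised pairs of RNAs to 3 spotted cDNA arrays of the same print. One RNA came from wild-type C57BL/6 (B6) thymocytes purified for high CD69, a surface protein that thymocytes raise after a T cell receptor signal. The other came from whole, unseparated thymocytes of Zap70-/- mice, which lack a kinase that the receptor needs to signal. The CD69hi RNA was labelled with Cy3 on arrays 1 and 2 and with Cy5 on array 3, and the titles call the Zap70-/- RNA CD69lo. Genotype and purification differ together between the RNAs and cannot be told apart. The age and sex of the mice and any pooling are not stated in the labels, nor is whether the arrays used RNA from separate mice, so a p-value reflects just the variation among the arrays and that variation may be technical.

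Each array gave 1 log ratio per probe and no level for either RNA, so the number of arrays, 3, limits the precision. All ratios are read as log2 of CD69hi over Zap70-/-, after those of arrays 1 and 2 were multiplied by -1. The direction is likely and not stated in the sources used here. As deposited, array 3 correlated across all probes with array 1 at r = -0.25 and with array 2 at r = -0.4, while arrays 1 and 2 correlated at r = 0.61. Probes do not count as replicates, so the correlations serve to describe the arrays alone. In this reading Rag1, a recombinase gene of immature thymocytes, had a log2 ratio of -1.19 ± 0.36 (SD, n = 3; limma adjusted p = 0.035), which did not pass without array 1 (adjusted p = 0.13) or without array 2 (adjusted p = 0.18). An opposite reading would turn every sign below. Cd69 and Zap70 were not analysed here.

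Ckb is the cytosolic, brain-type creatine kinase, which moves phosphate between ATP and creatine and so buffers ATP where demand changes quickly. Ephx1 is the microsomal epoxide hydrolase, an enzyme of the endoplasmic reticulum that turns reactive epoxides of drugs and lipids into diols. Nnmt is nicotinamide N-methyltransferase, which uses S-adenosylmethionine to methylate nicotinamide and thereby consumes both a methyl donor and a precursor of NAD. Dhrs3 is a short-chain dehydrogenase/reductase that reduces retinaldehyde to retinol and so limits the supply of retinoic acid, the ligand of the RAR receptors. The enzymes belong to separate pathways, and their usual high-expression sites (brain for Ckb, liver for Ephx1 and Nnmt) are not lymphoid.

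The stretches just upstream of the transcription starts of Ckb and Ephx1, which were higher in CD69hi RNA, and of Dhrs3, which was lower, are shown so that the genes of opposite direction can be compared. RefSeq (GRCm38.p6) promoter entries were matched for these 3 genes and not for Nnmt. Each sequence holds the 250 bases before a start, 5′ to 3′ on the gene's strand, and capitals mark matches to TATAAA (the TATA box) or CCAAT on either strand. The Ckb stretch is chr12:111672339-111672588 on the minus strand, that of Ephx1 is chr1:181017570-181017819 on the minus strand, and that of Dhrs3, before the most upstream of its 3 annotated starts, is chr4:144892577-144892826 on the plus strand.
Ckb: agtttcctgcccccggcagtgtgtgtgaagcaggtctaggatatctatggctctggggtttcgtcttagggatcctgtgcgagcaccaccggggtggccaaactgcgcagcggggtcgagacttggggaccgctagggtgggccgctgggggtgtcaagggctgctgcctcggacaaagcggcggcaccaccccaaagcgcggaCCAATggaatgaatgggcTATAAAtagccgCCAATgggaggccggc
Ephx1: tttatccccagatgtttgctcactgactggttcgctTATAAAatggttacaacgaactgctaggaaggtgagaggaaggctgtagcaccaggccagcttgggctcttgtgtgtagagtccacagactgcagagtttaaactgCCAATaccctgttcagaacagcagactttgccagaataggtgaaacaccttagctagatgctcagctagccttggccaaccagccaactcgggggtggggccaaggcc
Dhrs3: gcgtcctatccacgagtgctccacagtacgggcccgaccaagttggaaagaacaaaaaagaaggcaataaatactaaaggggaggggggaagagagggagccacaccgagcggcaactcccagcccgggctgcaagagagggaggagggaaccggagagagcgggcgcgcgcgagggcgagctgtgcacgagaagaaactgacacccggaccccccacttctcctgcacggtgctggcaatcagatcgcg

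The Ckb stretch held a TATAAA that begins 28 bases before the start and CCAAT at 46 and 16 bases before it. In the Ephx1 stretch TATAAA began 214 bases and CCAAT 108 bases before the start, and the Dhrs3 stretch shown held neither. The stretches before the other Dhrs3 starts, not shown, held CCAAT at 191 and 89 bases before the start in one and at 149 bases in the other, and no TATAAA. Those stretches overlap, and the match at 89 bases in one is the same site as that at 149 bases in the other. Of 32851 RefSeq stretches of the same length, 12.4% held TATAAA and 33.8% held CCAAT on either strand. Also searched on both strands were the GC box letters GGGCGG, present in 32.7% of all stretches, the nuclear receptor half-site AGGTCA, present in 14%, the AP-1 motif TGANTCA, present in 6.75%, and the dioxin response core GCGTG, present in 28.2%. None of these was in the 3 stretches shown. The G and C content was 62.8% for Ckb and 61.6% for Dhrs3, with 16 and 19 CpG sites, against 51.2% and 3 CpG sites for Ephx1. A match describes letters only, and the arrays carry no measurement of binding.

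Ckb had the highest mean of the 4 enzymes. Arrays 1, 2 and 3 gave log2 ratios of 2.69, 3.67 and 3.99, with a mean of 3.45 ± 0.68 (SD, n = 3), a 10.9-fold higher signal in CD69hi RNA. Array 1 was the low one, and the ratio ran from 6.45-fold there to 15.9-fold on array 3. Among the 6795 genes Ckb stood at rank 39 from the top on array 1, at rank 11 on arrays 2 and 3 and at rank 6 by the mean. Its SD was larger than that of 90.4% of genes, and arrays 1 and 2, which had the same dyes, already differed by 0.98.

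Ephx1 varied less between arrays. It had log2 ratios of 2.67, 3.11 and 3.47 on arrays 1, 2 and 3, a mean of 3.08 ± 0.40 (SD, n = 3) and an 8.48-fold higher signal in CD69hi RNA. Even the lowest array gave 6.39-fold, and the ranks were 40, 27 and 20 on the arrays and 11 by the mean. In bulk RNA, fewer cells that carry a transcript and less of it in each cell cannot be told apart, and this holds for all 4 enzymes.

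Nnmt gave the tightest values of the 4. The log2 ratios were 2.76, 3.13 and 3.26, with a mean of 3.05 ± 0.26 (SD, n = 3) and an 8.28-fold higher signal in CD69hi RNA. The lowest array, array 1, gave 6.76-fold. Its SD lay near the middle of all genes (larger than that of 49.8% of them; median SD 0.262), whereas the 93 genes with a mean of at least 2 in either direction had a median SD of 0.471. Nnmt ranked 37, 26 and 26 from the top on arrays 1, 2 and 3 and 13 by the mean.

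Dhrs3 went the other way on every array. Its log2 ratios were -2.71, -2.56 and -1.73, and the mean of -2.34 ± 0.53 (SD, n = 3) is a 5.05-fold higher signal in Zap70-/- RNA. Arrays 1 and 2 differed by 0.15 only, and the array with swapped dyes was the one nearest to 0, at 3.32-fold against 6.54-fold and 5.92-fold. From the bottom Dhrs3 ranked 35, 36 and 65 on the arrays and 16 by the mean.

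**Figure D1:**
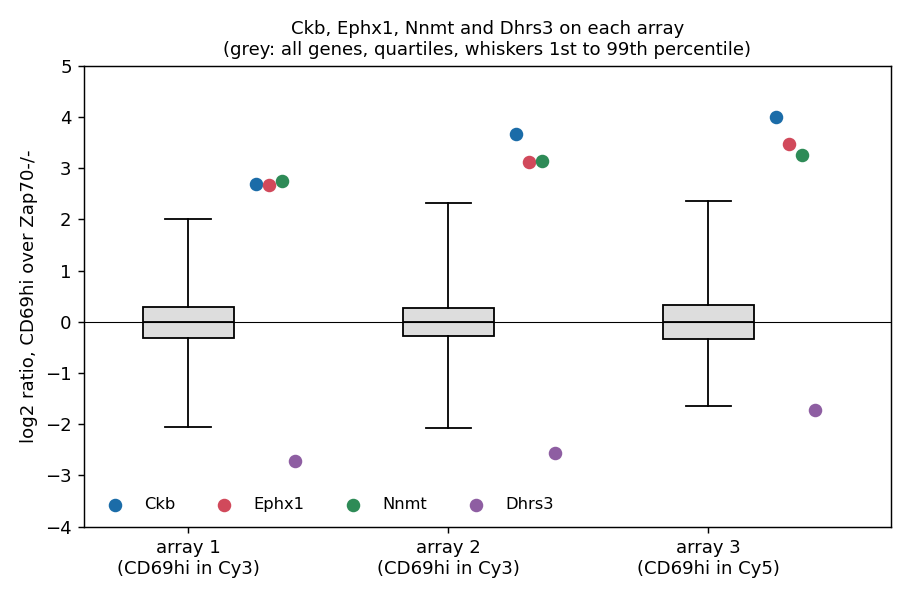
Log2 ratio of CD69hi over Zap70-/- RNA (vertical axis) on the 3 arrays for Ckb, Ephx1, Nnmt and Dhrs3 (coloured points), beside all 6795 genes (grey boxes: quartiles; whiskers: percentiles 1 and 99). Ckb, Ephx1 and Nnmt lie above and Dhrs3 below the whiskers on every array, and Dhrs3 comes closest to them on array 3.

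Ckb, Ephx1 and Nnmt could not be ordered on array 1, where they lay within 0.08 of each other by the differences Ckb minus Ephx1 (0.02), Ckb minus Nnmt (-0.07) and Ephx1 minus Nnmt (-0.08). Ckb led on arrays 2 and 3, by 0.56 and 0.52 over Ephx1. The mean difference of 0.37 ± 0.30 (SD, n = 3) is close to its spread, and so is that of 0.40 ± 0.42 between Ckb and Nnmt. Ephx1 and Nnmt differed by 0.04 ± 0.15, less than the spread. Dhrs3 lay at least 4.99 below each of the other enzymes on every array.

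The array with swapped dyes gave a higher ratio than the mean of the other arrays for each of the 4 enzymes, by 0.81 for Ckb, 0.58 for Ephx1, 0.31 for Nnmt and 0.91 for Dhrs3. When both dye orientations were given equal weight, the means were 3.59, 3.18, 3.10 and -2.18. With 3 arrays this weighting cannot move a mean by 1 SD, so the small shift says nothing about a dye bias. The part of a dye bias in these shifts was not tested.

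All 4 enzymes differed by at least 2-fold on every array, which 1.89% of the 8905 features (genes and probes without a single symbol) did with the CD69hi RNA higher and 0.955% with it lower. As the enzymes were chosen by these ratios, nothing follows from that count. Of the 6795 genes, 14 had a mean of at least 3, 64 of at least 2 and 29 of -2 or lower, so the enzymes sit in sparse tails.

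**Figure D2:**
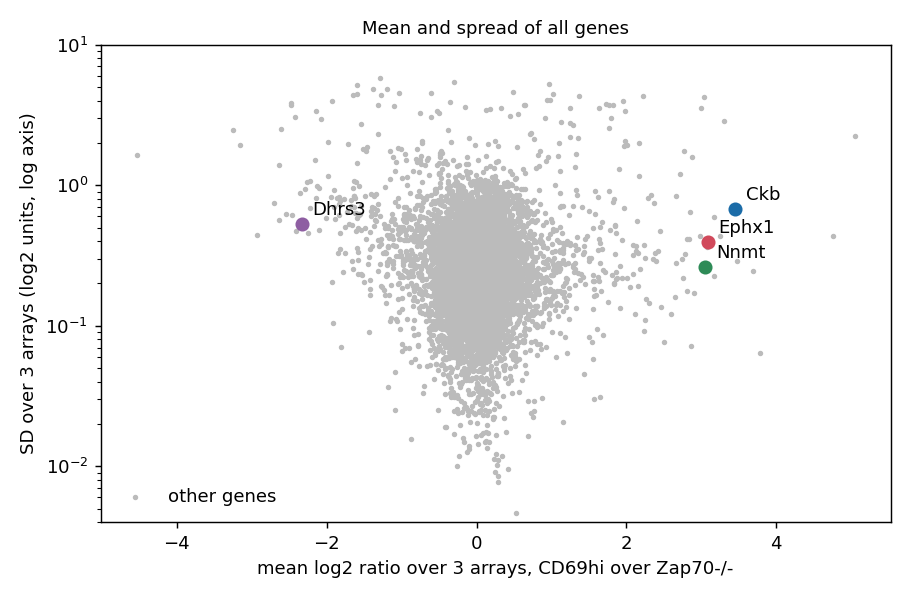
Mean log2 ratio over the 3 arrays (horizontal axis) against the SD over the arrays (vertical log axis) for each of 6795 genes, with the 4 enzymes coloured and named. Ckb, Ephx1 and Nnmt lie at the right end with SDs of 0.68, 0.40 and 0.26, and Dhrs3 lies in the left tail with an SD of 0.53.

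The genes whose 3 array values lay nearest to those of each enzyme, by Euclidean distance over the 3 arrays among all genes, are given as a description of these arrays. Nearest to Ckb were Zbtb7b, the gene of the CD4-lineage factor ThPOK (2.52, 3.32 and 3.67; distance 0.51), and the chemokine receptor gene Ccr7 (2.79, 3.29 and 3.67; distance 0.51), followed by Ephx1 (distance 0.77). The 2 probes of Zbtb7b differed on array 1, at 1.67 and 3.37. Ephx1 and Nnmt were each other's nearest gene, at a distance of 0.23. The tetraspanin gene Cd53 (2.97, 3.14 and 3.41) was among the 3 nearest to both, at 0.30 from Ephx1 and 0.26 from Nnmt. Ccr7 (0.29) completed the set for Ephx1 and Nab2, a co-repressor of Egr factors (2.51, 3.38 and 3.04; distance 0.41), that for Nnmt. Nearest to Dhrs3 were the DNA repair gene Xrcc6 (-2.67, -2.69 and -1.86; distance 0.19), Desi1 (-2.80, -2.84 and -1.76; distance 0.29) and Hmcn1 (-2.40, -2.61 and -1.73; distance 0.32). As the genes were picked by distance, a profile shared with an enzyme follows from the choice.

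The other genes of the enzymes' pathways stayed mostly near 0. Of 220 genes in 5 lists, 120 were measured, 3 rose and 1 fell at a limma adjusted p of at most 0.05, which is 3.33% of them, against 6.94% of all 8905 features (4.13% higher and 2.81% lower). The number called was 2 without array 1, 1 without array 2, 8 without array 3 and 12 with a dye term. Over all 8905 features it was 201, 119, 692 and 1076 in the same fits. On simulated data for 3 arrays, with the SDs shuffled over features, the limma fit recovered 32.8% of changes of log2 1 and 70% of those of log2 2. The 5 simulations gave 530 calls together, against 618 in the fit to the data. The adjusted threshold was thus stricter in the simulations, and these rates need not hold for the data. A gene that did not pass may still differ. The median absolute mean was 0.21 in the lists and 0.234 over all genes. None of the 120 reached the size of the smallest change among the 4 enzymes, that of Dhrs3. Of the 6795 genes 56 did (0.824%), the 4 enzymes included. As Dhrs3 was chosen by its ratio, nothing follows from that comparison.

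Around creatine kinase, 0 of 18 measured genes of creatine metabolism and phosphotransfer passed (limma), against 6.94% of all 8905 features. With unadjusted p up to 0.05 (limma), 2 were higher and 2 lower, against 2083 of all features in either direction. The list median was -0.04, against 0.01 over all features. Ckm, the muscle-type creatine kinase, had log2 ratios of 0.78, 0.84 and 0.47 (mean 0.70 ± 0.20, SD, n = 3; limma adjusted p = 0.063), far below Ckb on each array. It passed without array 3 (adjusted p = 0.045) and in the fit that had a dye term (0.043). The dye term lets array 3 be fitted exactly, so neither fit counts the disagreement of array 3 in its residual. The mitochondrial creatine kinases Ckmt1 and Ckmt2, named after their values were seen as the remaining kinases of the family, had means of 0.16 ± 0.39 and 0.14 ± 0.35 (SD, n = 3). The creatine transporter gene Slc6a8 (0.03 ± 0.60) and the enzymes of creatine synthesis, Gatm (-0.15 ± 0.30) and Gamt (-0.48 ± 0.42), named in the same way, did not pass either. The adenylate kinase gene Ak3 had a mean of -0.48 ± 0.10 (SD, n = 3; limma adjusted p = 0.11).

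Around Ephx1, 2 of 36 measured genes of epoxide and xenobiotic metabolism rose, 0 fell and 34 did not pass. That is 5.56% called, against 6.94% of all features, and the median was 0.11. With unadjusted p up to 0.05 (limma), 3 were higher and 5 lower, against 2083 of all 8905 features in either direction. Gstm2, named after its values were seen, had a mean of -1.02 ± 0.41 (SD, n = 3; limma adjusted p = 0.054). Fmo1, a flavin monooxygenase that oxidises drugs, had log2 ratios of 2.26, 2.19 and 1.82 and was 4.25-fold higher in CD69hi RNA (mean 2.09 ± 0.23, SD, n = 3; limma adjusted p = 0.0094). Gsta4, a glutathione transferase that clears products of lipid peroxidation, rose less (0.86, 0.97 and 0.60; mean 0.81 ± 0.19; limma adjusted p = 0.044). The call on Gsta4 was lost without array 1 or array 2 (adjusted p = 0.21 and 0.34) and with scaled arrays (adjusted p = 0.059). The other genes of the list that hydrolyse epoxides, named after their values were seen, did not pass: Ephx2, the soluble form, had a mean of 0.13 ± 0.58, Ephx4 one of 0.39 ± 0.37 and Lta4h, which hydrolyses the epoxide of a leukotriene, one of -0.25 ± 0.18 (SD, n = 3; limma adjusted p = 0.80, 0.29 and 0.36).

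Around Nnmt, 0 of 23 measured genes of nicotinamide, NAD and methyl donor metabolism passed (limma), against 6.94% of all 8905 features. With unadjusted p up to 0.05 (limma), 2 were higher and 4 lower, against 2083 of all features in either direction. The list median was -0.18. The largest moderated t values belonged to Nnt, the mitochondrial transhydrogenase of NADH and NADP (-0.94, -0.94 and -0.38; mean -0.76 ± 0.32, SD, n = 3; limma adjusted p = 0.078), and to Bst1, an ectoenzyme that consumes NAD (-0.39, -0.67 and -1.15; mean -0.74 ± 0.39; limma adjusted p = 0.10). Nnt passed without array 3 (adjusted p = 0.038), and both passed with a dye term (adjusted p = 0.041 and 0.043). Nampt, which makes NAD from the nicotinamide that Nnmt would methylate, had a mean of 0.38 ± 0.16 (limma adjusted p = 0.19), and Inmt, a relative of Nnmt, one of -0.50 ± 0.23 (adjusted p = 0.13); both were named after their values were seen.

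Around Dhrs3, 0 of 27 measured genes of retinoid metabolism and response passed (limma), against 6.94% of all 8905 features. With unadjusted p up to 0.05 (limma), 3 were higher and 2 lower, against 2083 of all features in either direction. The list median was 0.06. The retinoic acid receptor genes lay on the opposite side of 0 from Dhrs3. Rarg had log2 ratios of 0.68, 0.63 and 1.23 (mean 0.85 ± 0.33, SD, n = 3; limma adjusted p = 0.062) and Rarb of 0.84, 0.65 and 0.50 (mean 0.66 ± 0.17; limma adjusted p = 0.063), and both passed with a dye term (adjusted p = 0.030 and 0.049). Rara, named after its values were seen, had a mean of 0.57 ± 0.13 (limma adjusted p = 0.081). Among other retinoid enzymes, also named afterwards, the retinol dehydrogenases Rdh11 (-0.23, -0.32 and -0.54) and Rdh5 (0.65, 0.09 and 0.19) had means of -0.36 ± 0.16 and 0.31 ± 0.30 (SD, n = 3; limma adjusted p = 0.21 and 0.34). Cyp26a1, which degrades retinoic acid, had a mean of -0.05 ± 0.12, the retinaldehyde dehydrogenases Aldh1a1 and Aldh1a2 had 0.25 ± 0.37 and 0.13 ± 0.25, and the retinol-esterifying Lrat had -0.22 ± 0.16 (SD, n = 3). None of these 6 passed.

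Of 21 measured short-chain dehydrogenases/reductases, the enzyme family of Dhrs3, 1 rose, 1 fell and 19 did not pass. That is 9.52% called, against 6.94% of all features, with a median of 0.01. Hsdl1, a hydroxysteroid dehydrogenase-like protein, fell with Dhrs3 (-1.76, -1.60 and -1.29; mean -1.55 ± 0.23, SD, n = 3; limma adjusted p = 0.015), and its 2 probes had means of -1.75 and -1.35. Hsd11b1, which regenerates active glucocorticoid, rose (1.06, 1.15 and 1.35; mean 1.19 ± 0.15; limma adjusted p = 0.020). Neither passed without array 1 (limma adjusted p = 0.055 for Hsdl1 and 0.072 for Hsd11b1) or without array 2 (adjusted p = 0.065 and 0.12). The list then had 0 calls (limma), with 2 genes at an unadjusted p up to 0.05 in each case. All 8905 features had 201 and 119 calls in those fits, and 1285 and 1046 at that unadjusted p.

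**Figure D3:**
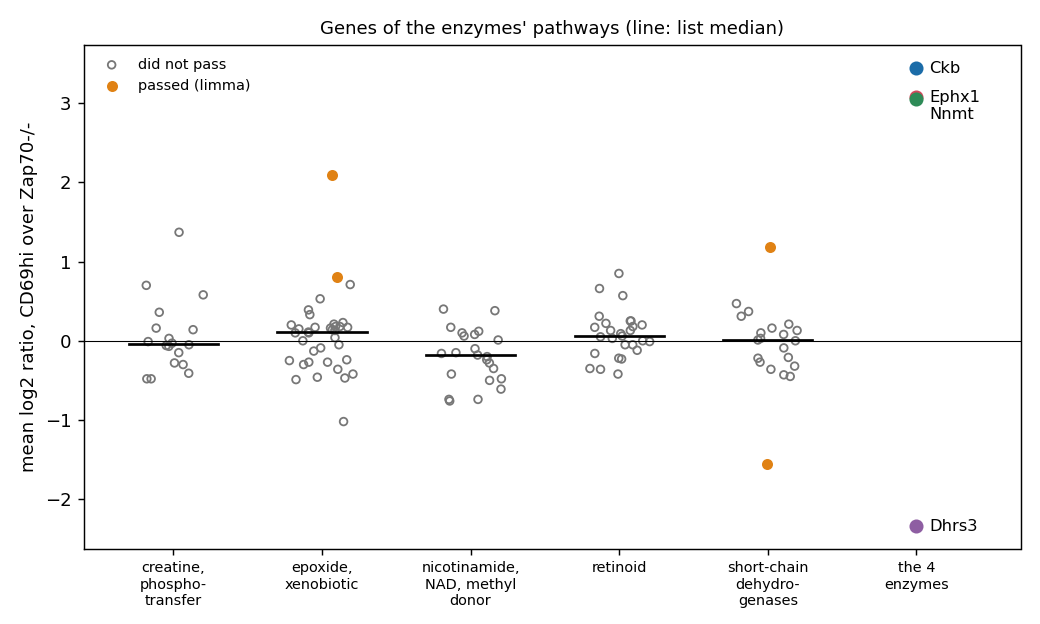
Mean log2 ratio over the 3 arrays (vertical axis) of every measured gene of the 5 pathway lists, with the 4 enzymes in the last column. Filled points passed the limma threshold, open points did not, and the line is the list median. The 4 filled points are Fmo1, Gsta4, Hsd11b1 and Hsdl1, and every listed gene lies between the level of Nnmt and that of Dhrs3.

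Marker genes of other cells moved with the direction of Ckb, Ephx1 and Nnmt for macrophages and dendritic cells. Of 15 measured markers of these cells 9 rose, against 4.13% of all features, 0 fell and 6 did not pass, the means ran from 0.04 to 2.83, and the list median was 1.28, 1.70 and 1.16 on arrays 1, 2 and 3. Leaving out 1 array left 7 to 10 of them higher, against 95 to 283 of all 8905 features. Ctss, a lysosomal protease of antigen-presenting cells, had a mean of 2.83 ± 0.41 (SD, n = 3; limma adjusted p = 0.0089), the lysozyme gene Lyz2 one of 2.51 ± 0.08 (adjusted p = 0.0051) and the apolipoprotein gene Apoe one of 2.46 ± 0.14 (adjusted p = 0.0057). The part of such cells in the ratios of the 3 enzymes was not tested, and with ratios alone no level at or near 0 can be shown for any marker.

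Of 9 granulocyte markers 1 fell, S100a8, and 8 did not pass, against 2.81% lower among all features. The list median was -0.86 and 1 member, Mmp9, had a mean above 0 (0.38 ± 0.57, SD, n = 3). S100a8 and Mmp9 are named after their values were seen. The number lower was 0 without array 1 or array 2 (limma), 4 without array 3 and 5 with a dye term. Over all 8905 features it was 32, 24, 409 and 514 in those fits. Without array 1 or array 2, 6 and 5 of the markers had an unadjusted p up to 0.05 (limma), against 1285 and 1046 of all features. S100a9 had log2 ratios of -2.74, -2.57 and -0.63 (mean -1.98 ± 1.17, SD, n = 3), Ngp had a mean of -1.63 ± 1.07 and Camp one of -1.14 ± 0.55. These 3 did not pass (limma adjusted p = 0.079, 0.10 and 0.066). They did without array 3 (limma adjusted p = 0.026, 0.026 and 0.038) and in the dye-term fit (adjusted p = 0.024, 0.029 and 0.042). Neither of those fits counts the disagreement of array 3 in its residual. As in Dhrs3, array 3 was the one closest to 0 for each of them. This was not particular to these markers, as the thymocyte genes Rag1, Cd8a and Dntt showed it too. Percentile 1 of all genes was -2.06, -2.07 and -1.64 on arrays 1, 2 and 3. The part of these cells in the ratio of Dhrs3 was not tested. Of 10 thymocyte genes, Rag1 fell (10%, against 2.81% of all features), 9 did not pass and the median was -0.25, with means of -1.13 ± 0.62 for the coreceptor gene Cd8a (limma adjusted p = 0.081; 0.043 without array 3 and 0.048 with a dye term) and -1.05 ± 0.71 for the terminal transferase gene Dntt (adjusted p = 0.12).

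In the limma fit no gene passed among 6 B cell markers (means from -0.35 to 1.40), 14 markers of thymic epithelium and stroma (-0.95 to 0.46) or 4 erythroid markers (-0.10 to 0.53). Over all 8905 features 6.94% passed. An unadjusted p up to 0.05 (limma) was reached by 5 of these markers and by 2083 of all features.

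**Figure D4:**
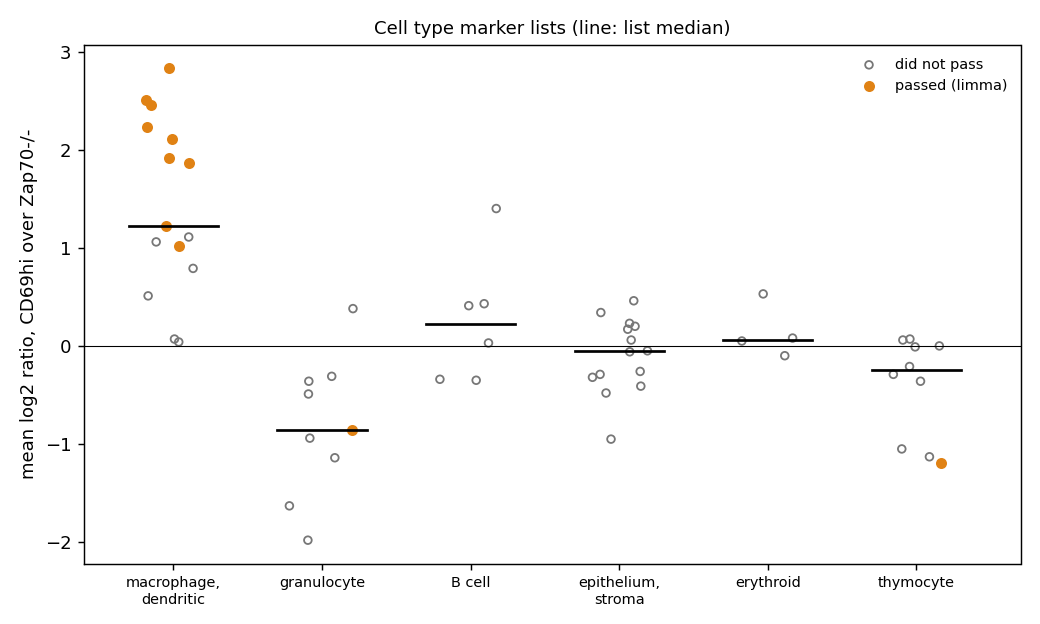
Mean log2 ratio over the 3 arrays (vertical axis) of each measured marker gene in the 6 cell type lists. Filled points passed the limma threshold, open points did not, and the line is the list median. The macrophage and dendritic list, with a median of 1.22, lies highest and the granulocyte list, at -0.86, lowest.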

How the data were processed

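Total RNA of mouse thymocytes was measured on 3 two-colour spotted arrays, and the table deposited by the authors holds 1 log ratio per probe and array, taken here as log2. How the images were read, background was corrected and ratios were normalized, and the log base, is not stated in the sources used here. Deposited values reach -9.4, beyond what a scanner gives as log10, but a natural logarithm is possible, and fold changes would then be larger. Each array was centred near 0 (medians -0.004, -0.005 and -0.002), and dim spots could not be left out.

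Of 9596 probes, 7486 had 1 symbol in the platform annotation, 483 had several and 1627 had none. Entrez identifiers of 7395 of the former were found in RefSeq (GRCm38.p6), which changed 0 symbols. Probes were averaged per symbol (8905 features, 6795 genes). Arrays with CD69hi in Cy3 were multiplied by -1. limma 3.58.1 (lmFit, eBayes; R 4.3.3) fitted 1 coefficient with 2 residual degrees of freedom to all features, two-sided, with Benjamini-Hochberg adjustment and a threshold of 0.05, and the fit was tested on simulated data. Spotted cDNA can bind transcripts of related genes. A ± is the SD over arrays.

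The 4 enzymes, the 5 pathway lists and the 6 marker lists were chosen with earlier results of these data known. Named from each pathway list were up to 6 called genes by size or, with fewer than 2 called, the 2 with the largest moderated t, from each marker list with a call the 3 largest means, and for each enzyme the 3 nearest genes. Other genes are named where the text says so. Alternatives left out each array, added a dye term, scaled or centred arrays, took probe medians, used robust shrinkage or left arrays unturned.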

Additional observations from a re-analysis of the deposited data

How the results depend on the processing

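The means of the 4 enzymes kept their direction when each array was left out in turn, with a dye term and with scaled or centred arrays. Each enzyme had the same sign on all 3 arrays, so leaving out an array or adding a dye term could not turn it. With 3 arrays, those changes also cannot move a mean by 1 SD, so the size of the shift is no evidence of stability. Scaled or centred arrays moved each mean by less than 1 SD. Leaving out 1 array gave 3.18 to 3.83 for Ckb, 2.89 to 3.29 for Ephx1, 2.94 to 3.19 for Nnmt and -2.64 to -2.15 for Dhrs3. Each enzyme had 1 probe, so probe medians could not change its mean and a choice of probe could not be varied. With arrays left as deposited, opposite dye orientations are averaged by construction. The means were then -0.79 for Ckb, -0.77 for Ephx1, -0.88 for Nnmt and 1.18 for Dhrs3.

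Calls over all features, 618 with all arrays, ran from 119 (without array 2) through 201 (without array 1) to 692 (without array 3), with 1076 under a dye term and 0 as deposited (limma; 342 with unadjusted p up to 0.05). Creatine and phosphotransfer genes had 0 to 1 calls without 1 array (1 without array 3) and 2 with a dye term. Epoxide and xenobiotic genes had 1 to 3 without 1 array (1 without array 2), 1 with scaled arrays and 0 as deposited (limma; 2 with unadjusted p up to 0.05). Nicotinamide, NAD and methyl donor genes had 0 to 2 (2 without array 3) and 3 with a dye term, and retinoid genes had 2 with a dye term. Short-chain dehydrogenases/reductases had 0 to 2 without 1 array (0 without array 1 or 2) and 0 as deposited (limma; 0 with unadjusted p up to 0.05). The causes of these differences were not tested. Fits on 2 arrays have fewer residual degrees of freedom, with fewer calls over all features without array 1 or 2 and more without array 3. A fit without array 3 cannot separate dye from RNA. The dye-term fit also has fewer residual degrees of freedom, and its residual comes from arrays 1 and 2 alone. A pass in that fit is therefore not separate from a pass without array 3.

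Marker counts and the count over all pathway lists were recomputed without each array and with a dye term, alternatives chosen after seeing the data. Epithelial and stromal markers, 0 called with all arrays, had 1 without array 3 and 2 with a dye term. All 8905 features had 692 and 1076 calls in those fits.

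As deposited, the sign turned for 18 of the 19 tested genes named by the rule. Among pathway genes the values were -0.39 for Ckm, 0.20 for Ak3, -0.87 for Fmo1, -0.41 for Gsta4, 0.50 for Nnt, -0.33 for Rarb, -0.03 for Rarg, -0.29 for Hsd11b1 and 0.69 for Hsdl1. Among markers they were -0.89 for Lyz2, -0.74 for Apoe, -1.23 for Ctss, 1.56 for S100a9, 0.78 for Camp, 1.36 for Ngp, 0.82 for Cd8a, 0.67 for Rag1 and 0.82 for Dntt. For the nearest genes they were -0.72 for Zbtb7b, -0.81 for Ccr7, -0.90 for Cd53, -0.95 for Nab2, 1.17 for Xrcc6, 1.29 for Desi1 and 1.09 for Hmcn1. No spot intensities were used, so signal over background cannot be stated. Each ratio already pairs both RNAs on 1 array, and no further pairing was fitted.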
